A study of Mus musculus with 8 samples.

Results

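The serotonin receptors described here are 7 genes, Htr1a, Htr1b, Htr1f, Htr2a, Htr2c, Htr4 and Htr5a, chosen by name from the 13996 genes of the expression values. RNA sequencing was performed on cortexes of male C57BL/6 mice, 4 on a normal diet and 4 on a diet enriched with fat (HFD mice), with 1 library of rRNA-depleted RNA per mouse. All mice were obtained as adults, kept on their diet for 8 weeks and taken at 16 weeks of age, and the HFD mice had gained weight and tolerated glucose poorly. Expression was given as FPKM, in which fragment numbers are divided by transcript length and by the mapped reads of the library, so levels can be compared between genes per unit of length, while read depth is unknown. Normal mice 2 and 3 stand apart in markers of cerebellum (211 and 291 FPKM summed, against 9.9 to 62.0 in the other 6 mice) and of thalamus, so the receptors are also given without them. This does not remove every regional difference between the diets. Striatal markers summed to 451 and 245 FPKM in normal mice 1 and 4, against 82.1 to 91.6 in HFD mice.

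Serotonin reaches the cortex through axons of neurons whose cell bodies lie in the raphe nuclei of the brainstem, and cortical neurons read it through a family of membrane receptors. Receptors of the Htr1 group, and Htr5a, couple mainly to inhibitory G proteins (Gi/o), which lower cyclic AMP and open potassium channels. Receptors of the Htr2 group couple to Gq and phospholipase C and release calcium from internal stores. Htr4, Htr6 and Htr7 couple to Gs and raise cyclic AMP, and Htr3a forms an ion channel. In cortex, Htr1a and Htr2a are found together on many pyramidal neurons, where they act in opposite directions on excitability.

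In high fat diet fed cortex, the mRNA of Htr1a was higher and that of Htr2a was lower, each by less than 50%, and the other 5 receptors did not pass the test. Htr1a was 1.44-fold higher and Htr2a 1.44-fold lower on the log2(FPKM + 0.1) scale. In bulk tissue, fewer cells of a type and less RNA per cell cannot be told apart. The diets were compared by limma over 13982 genes (two-sided, variance trend, Benjamini-Hochberg adjustment), and a gene was called when its adjusted p was below 0.05. All 7 receptors passed the filter on low values (mean FPKM 1 or more, with no listed 0), as did 13982 of the 13996 genes listed. The 2 calls among 7 receptors stand beside a background of 33.1% of all genes called, with 17.7% higher and 15.3% lower, so the share called was close to that of any gene. The count was 0 without HFD mouse 1 or 4, and 1 without normal mouse 1 or HFD mouse 2. No call exceeded a change of 50%, which 7.13% of all genes did. The diets overlapped in all 7 receptors, whereas 31.9% of all genes had no overlap. The median log2 change of the 7 was -0.01, beside 0.00 over all genes.

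**Figure D1:**
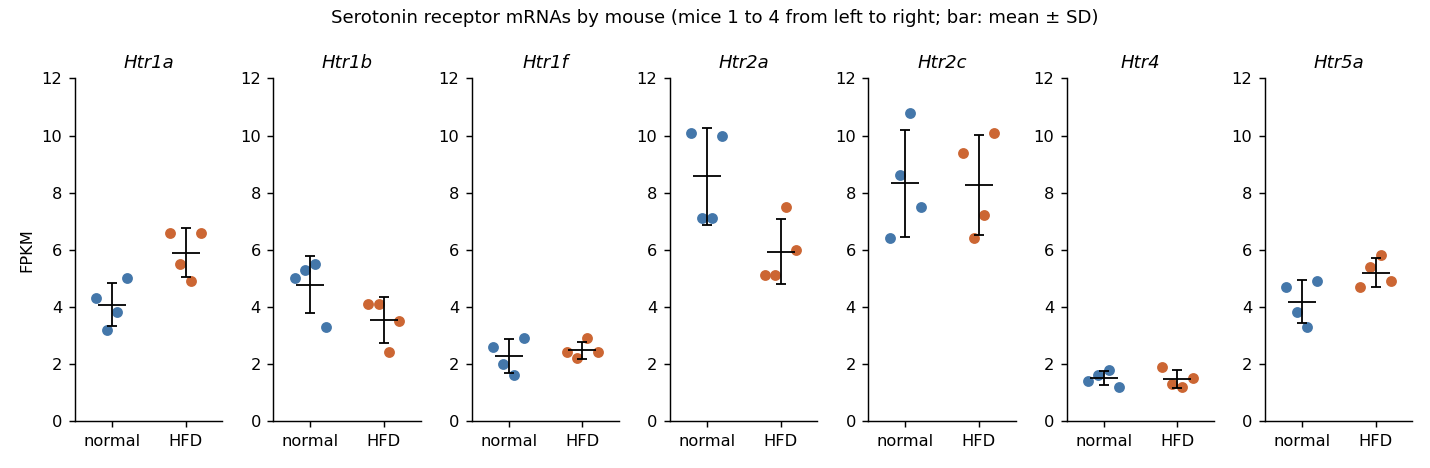
FPKM (vertical axis, from 0) of each of the 7 receptors in the 4 normal mice and the 4 high fat diet fed (HFD) mice, with a point per mouse and the mean ± SD in black. Htr1a lay higher in HFD mice (5.90 against 4.08 on average) and Htr2a lower (5.93 against 8.58), and the points of the diets overlap in every panel.

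For both called receptors, the stretch ahead of the gene is shown, and its part in the diet difference was not tested. It covers bases 250 to 55 before the RefSeq start site in GRCm38.p6, at chr13:105443443-105443638 for Htr1a and at chr14:74640624-74640819 for Htr2a, both on the plus strand and both ahead of the GENCODE start. Capitals mark matches to 6 short motifs searched on both strands: the GC box (GGGCGG), the half-site of the cyclic AMP response element (TGACG), the half-site of the glucocorticoid response element (AGAACA), the AP-1 site (TGANTCA), the E-box (CANNTG) and the TATA box (TATAAA).
Htr1a: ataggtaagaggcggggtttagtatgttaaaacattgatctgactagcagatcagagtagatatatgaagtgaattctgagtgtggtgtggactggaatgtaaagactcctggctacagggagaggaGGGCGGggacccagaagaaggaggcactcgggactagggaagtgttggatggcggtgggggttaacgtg
Htr2a: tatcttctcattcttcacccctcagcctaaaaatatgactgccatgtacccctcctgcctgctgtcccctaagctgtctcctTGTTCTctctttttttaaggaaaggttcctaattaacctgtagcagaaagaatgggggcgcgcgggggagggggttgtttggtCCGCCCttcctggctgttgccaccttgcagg

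Each stretch held 1 GC box, which begins 123 bases before the start in Htr1a and 85 bases before it in Htr2a, and a GC box was present in 23.9% of 32841 stretches of the same 196 bases from RefSeq promoters. The stretch of Htr2a also held 1 glucocorticoid half-site, 168 bases before the start, a match found in 13.1% of all stretches. Neither stretch matched the cyclic AMP half-site (12.3% of all), the AP-1 site (5.42%), the E-box (58.4%) or the TATA box (9.00%). Their GC content was 50% and 52.0%, beside a median of 51.5% over all stretches. These matches describe letters only, as binding was not measured in these libraries.

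Htr1a (ENSMUSG00000021721.5), a Gi/o-coupled receptor that also serves as the autoreceptor of serotonin neurons, is a plus-strand gene of chromosome 13, from 105443639 to 105448122, and has a single exon. Its FPKM was 4.3, 3.2, 3.8 and 5.0 in normal mice 1 to 4 and 6.6, 5.5, 4.9 and 6.6 in HFD mice 1 to 4. Each HFD mouse lay above the normal mean, and the overlap came from normal mouse 4, just above HFD mouse 3. The mean was 4.08 ± 0.763 (SD, n = 4) on the normal diet and 5.90 ± 0.845 (SD, n = 4) on the high fat diet, a log2 change of 0.53 (standard error 0.15, limma adjusted p = 0.021). The call was just kept without normal mouse 2 or 3, and it was lost without HFD mouse 1 (limma adjusted p = 0.0596) or 4 (limma adjusted p = 0.0549), with a log2 change of 0.47 in each of these fits. Without normal mice 2 and 3, a choice made after the values were seen, the log2 change of Htr1a was 0.33 (limma adjusted p = 0.131).

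Htr2a (ENSMUSG00000034997.5), the Gq-coupled receptor of cortical pyramidal neurons and the main target of classical hallucinogens, is a plus-strand gene of chromosome 14, from 74640840 to 74709494, and has 3 exons, all with coding sequence. Its FPKM was 10.1, 7.1, 7.1 and 10 in normal mice and 5.1, 5.1, 7.5 and 6.0 in HFD mice. Each HFD mouse lay below the normal mean, and HFD mouse 3 lay above normal mice 2 and 3. The mean fell from 8.58 ± 1.70 to 5.93 ± 1.13 (SD, n = 4 each), a log2 change of -0.52 (standard error 0.16, limma adjusted p = 0.0327). The call of Htr2a was lost when any of 5 mice was left out. The log2 change was -0.44 without normal mouse 1 or 4 (limma adjusted p = 0.0719 and 0.0716), -0.46 without HFD mouse 1 or 2 (limma adjusted p = 0.085 and 0.0889) and -0.53 without HFD mouse 4 (limma adjusted p = 0.0591). In the fit without normal mice 2 and 3 the log2 change was -0.77 (limma adjusted p = 0.0139).

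Htr2c (ENSMUSG00000041380.13), the other Gq-coupled member, is a receptor whose pre-mRNA is edited by adenosine deaminases and whose loss in mice leads to overeating. It is a plus-strand gene of the X chromosome, from 146962513 to 147197277, and its longest coding transcript has 7 exons, 4 of them coding. Its FPKM was 6.4, 8.6, 10.8 and 7.5 in normal mice and 9.4, 6.4, 7.2 and 10.1 in HFD mice, so both diets covered nearly the same range. The means were 8.33 ± 1.88 and 8.28 ± 1.76 (SD, n = 4 each), and the log2 change was -0.01, with a 95% interval from -0.41 to 0.40 (limma adjusted p = 0.981). As a fold, this interval ran from 0.752 to 1.32. Htr2c is also strongly expressed in choroid plexus epithelium, and the choroid plexus markers were uneven among the mice, as given with the marker sums.

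Htr1b (ENSMUSG00000049511.5), a Gi/o-coupled receptor found on axon terminals, is a minus-strand gene of chromosome 9, from 81628291 to 81633828, with its coding sequence in 1 of 2 exons. Its FPKM was 5.0, 5.3, 5.5 and 3.3 in normal mice and 4.1, 4.1, 2.4 and 3.5 in HFD mice. Only normal mouse 4 kept the diets from separating. The means were 4.78 ± 1.00 and 3.53 ± 0.802 (SD, n = 4 each), the log2 change was -0.43, and the 95% interval ran from -0.88 to 0.02 (limma adjusted p = 0.128). Without normal mouse 4 the log2 change was -0.60 and the call was made (limma adjusted p = 0.0306). It was -0.26 without HFD mouse 3 (limma adjusted p = 0.286) and -0.23 without normal mice 2 and 3 (limma adjusted p = 0.534). An antisense gene, D430036J16Rik, shares 852 exonic bases with Htr1b. The libraries were made with a stranded kit, but no source used here says if reads were assigned by strand. The value of Htr1b is therefore uncertain.

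Htr5a (ENSMUSG00000039106.6), a Gi/o-coupled receptor of neurons, is a plus-strand gene of chromosome 5, from 27842149 to 27855088, and has 2 exons. Its FPKM was 4.7, 3.8, 3.3 and 4.9 in normal mice and 4.7, 5.4, 5.8 and 4.9 in HFD mice. The lowest values of the HFD mice met the highest of the normal mice. The means were 4.18 ± 0.754 and 5.20 ± 0.497 (SD, n = 4 each), a log2 change of 0.32 with a 95% interval from 0.03 to 0.61 (limma adjusted p = 0.083). Without normal mouse 4 the log2 change of Htr5a was 0.40 and passed the threshold (limma adjusted p = 0.0411). It was 0.22 without normal mouse 3 (limma adjusted p = 0.186) and 0.11 without normal mice 2 and 3 (limma adjusted p = 0.487).

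Htr1f and Htr4 were the receptors with the lowest levels. Htr1f (ENSMUSG00000050783.4), a Gi/o-coupled receptor and a target of migraine drugs, is a minus-strand gene of chromosome 16, from 64924729 to 65105854, with its coding sequence in 1 of 3 exons. Its FPKM was 2.6, 2.0, 1.6 and 2.9 in normal mice and 2.4, 2.2, 2.9 and 2.4 in HFD mice, and the values on the high fat diet fell within the range of the normal mice. The log2 change of Htr1f was 0.14 (95% interval from -0.26 to 0.55, limma adjusted p = 0.563). Htr4 (ENSMUSG00000026322.8), the Gs-coupled member, is a plus-strand gene of chromosome 18, from 62324204 to 62496577. It was at 1.4, 1.6, 1.8 and 1.2 FPKM in normal mice and 1.9, 1.3, 1.2 and 1.5 in HFD mice. Its log2 change was -0.03 (95% interval from -0.43 to 0.37, limma adjusted p = 0.917). Values are rounded to 0.1 FPKM, a step that is coarse beside the spread of Htr4. For Htr1f, Htr2c and Htr4, the sign of the log2 change turned in at least 1 fit that left out a mouse. Without normal mice 2 and 3 it was -0.15 for Htr1f, 0.23 for Htr2c and 0.15 for Htr4, none of them called.

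**Figure D2:**
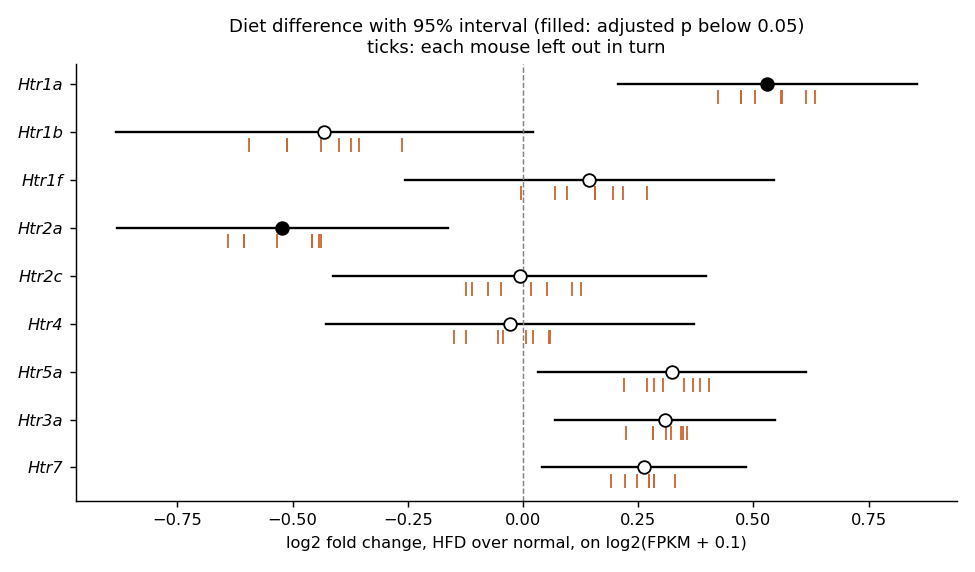
Log2 fold change of each listed serotonin receptor (high fat diet fed over normal, horizontal axis) with its 95% interval as a line, a filled point where the adjusted p from limma was below 0.05, and ticks for the fits that left out each mouse in turn. Htr1a at 0.53 and Htr2a at -0.52 are the filled points, and the ticks of Htr1f, Htr2c and Htr4 fall on both sides of 0.

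The order of the levels differed between the diets. In normal mice Htr2a and Htr2c led with 8.58 and 8.33 FPKM, and neither was above the other in more than 2 of 4 mice. Below them, Htr2c exceeded Htr1b in 4 of 4 mice without overlap. Htr1b, Htr5a and Htr1a, at 4.78, 4.18 and 4.08 FPKM, overlapped as neighbours. Htr1a exceeded Htr1f, at 2.28 FPKM, in 4 of 4 mice, and Htr1f exceeded Htr4 in 3 of 4.

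In HFD mice Htr2c was the highest, at 8.28 FPKM, and lay above Htr2a in 3 of 4 mice. Htr2a, Htr1a and Htr5a followed at 5.93, 5.90 and 5.20 FPKM with overlapping ranges. Htr5a lay above Htr1b in 4 of 4 mice without overlap, and Htr1f above Htr4 in 4 of 4. Over all 8 mice, the mean FPKM of Htr2c was above that of 40.3% of the 12531 mRNAs listed. The share was 36.0% for Htr2a, 25.6% for Htr1a and 4.35% for Htr4. Genes with a mean FPKM below 1 are almost absent from those listed.

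The sum over the 7 receptors was nearly level, at 34.5, 31.6, 33.9 and 34.8 FPKM in normal mice and 34.2, 30, 31.9 and 35.0 FPKM in HFD mice. The make-up of the sum was not. Htr1a made up 10.1% to 14.4% of the sum in normal mice and 15.4% to 19.3% in HFD mice. Htr2a made up 20.9% to 29.3% and 14.9% to 23.5%, which overlap. The Gq-coupled pair of Htr2a and Htr2c held 47.8% to 52.8% of the sum in normal mice and 38.3% to 46.1% in HFD mice. The Gi/o-coupled group of Htr1a, Htr1b, Htr1f and Htr5a held 41.9% to 48.1% and 49.7% to 57.3%. As summed FPKM, both classes overlapped between the diets. The Gq-coupled pair summed to 15.7 to 17.9 FPKM in normal mice and 11.5 to 16.1 in HFD mice. The Gi/o-coupled group summed to 14.2 to 16.6 and 16.0 to 17.8 FPKM. Mean shares within a class did not all move alike, but the ranges of single members overlapped in part. The mean share of Htr2c was 24.8% and 25.1%. That of Htr1b went from 14.2% to 10.8%, with ranges of 9.48% to 16.8% and 7.52% to 13.7%. The ratios of Htr2a to Htr2c and of Htr1a to Htr1b overlapped between the diets, so a different response within a class was not shown. Shares of a sum are tied to each other, and no test was made on them.

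**Figure D3:**
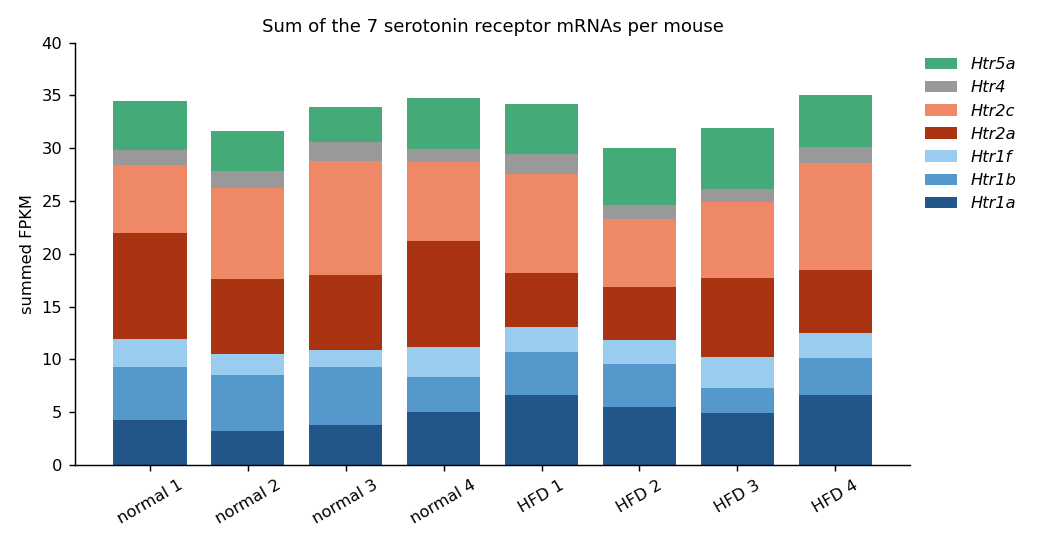
Stacked bars of FPKM of the 7 receptors in each of the 8 mice (vertical axis, summed FPKM). The height stays between 30 and 35.0 FPKM, the layer of Htr1a spans 3.2 to 5.0 FPKM in normal and 4.9 to 6.6 FPKM in HFD mice, and the layer of Htr2a is thickest in normal mice 1 and 4 (10.1 and 10 FPKM).

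Whether the receptors differed from each other in their response was tested on the log2 ratio of each pair within a mouse. Apart from the constant of 0.1 added to each FPKM before the logarithm, this does not depend on scaling between libraries. Plain ratios are given without the constant. Htr1a over Htr2a was 0.426, 0.451, 0.535 and 0.50 in normal mice and 1.29, 1.08, 0.653 and 1.10 in HFD mice, so the diets did not overlap. The log2 ratio, with the constant, was -1.05 ± 0.146 and 0.00 ± 0.420 (SD, n = 4 each), a difference of 1.05. Htr2a over Htr5a was 1.87 to 2.15 in normal mice and 0.944 to 1.29 in HFD mice. Htr1f over Htr2a was 0.225 to 0.29 and 0.387 to 0.471.

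Each of these 3 ratios, all with Htr2a, reached p = 0.0286 in a two-sided exact permutation of the diet labels with 70 assignments, the smallest p that 4 against 4 mice can give. After Benjamini-Hochberg adjustment over the 21 pairs the value was 0.20, so 0 of 21 pairs passed, and 3 passed unadjusted. With this smallest p, more than 12 pairs would have to reach it for any to pass, so the adjusted test could hardly call a pair. The same 3 of 21 pairs were those in which the ratios of the diets did not overlap. This is the same result as the smallest p, and the 3 share Htr2a. The ratio of Htr2c to Htr4 differed by 0.02 on the log2 scale (exact permutation p = 0.914), with SDs of 0.199 and 0.216.

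The receptors also differed among mice of the same diet. Htr1a, Htr1f, Htr2a and Htr5a were each higher in normal mice 1 and 4 than in normal mice 2 and 3. Htr1b, Htr2c and Htr4 were each lower. In the HFD mice, mouse 3 had the lowest Htr1a, Htr1b and Htr4 and the highest Htr1f, Htr2a and Htr5a of its diet. By root mean square difference of centred log2(FPKM + 0.1) over the 8 mice, the 3 genes with the pattern most like Htr5a were Fstl4 (0.0373), Cacnb3 (0.0474) and Lmtk2 (0.0479). For Htr1a they were Epha5 (0.0806), Cdkl4 (0.0825) and St6galnac5 (0.0896), and for Htr2a they were Arl4d (0.0912), Plekha2 (0.135) and the lincRNA B230217O12Rik (0.141). Those of Htr1b were Bche, Dcxr and Emcn (0.0913 to 0.152), and those of Htr1f were Mkx, AC103620.3 and Net1 (0.0697 to 0.091). Htr2c (Atg9b, Ehd4 and Rmst, 0.101 to 0.122) and Htr4 (Blvrb, Ehd4 and Crtap, 0.0875 to 0.0944) had Ehd4 in common. This likeness holds the diet difference and the differences between mice alike, and was searched over 13981 genes.

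Marker genes of cell types and of neighbouring brain regions were compared between the same mice. The labelled tissue was checked by markers of cortical projection neurons, such as Slc17a7, the vesicular glutamate transporter, in every mouse. Their sum over 7 genes was 421 to 599 FPKM in normal mice and 641 to 810 in HFD mice, with normal mice 2 and 3 lowest, and 6 of 7 were called higher and 0 lower. The 6 listed cerebellar markers of 7 summed to 14.0, 211, 291 and 62.0 FPKM in normal mice and 9.9 to 12.9 in HFD mice, with 4 of 5 tested called lower. Gabra6 was listed at 0 in an HFD mouse. The 5 thalamic markers summed to 23.8, 56.9, 47.2 and 13.5 FPKM in normal mice and 9.7 to 10.4 in HFD mice, with 3 called lower. The 10 listed striatal markers of 12 summed to 245 to 451 FPKM in normal mice and 82.1 to 91.6 in HFD mice, and all 10 were called lower. The part of these regions in the results for the 7 receptors was not tested.

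The 10 listed choroid plexus markers of 12 summed to 353 to 744 FPKM in normal mice and to 81.9, 25.1, 31.5 and 963 FPKM in HFD mice 1 to 4, a sum led by Ttr. Htr2c in the same HFD mice was 9.4, 6.4, 7.2 and 10.1 FPKM, so the order of the 4 HFD mice was the same in both. In normal mice the sums were 680, 582, 744 and 353 FPKM beside Htr2c values of 6.4, 8.6, 10.8 and 7.5 FPKM, and the orders differed apart from mouse 3, the highest in both. The part of choroid plexus in the result for Htr2c was not tested. Without HFD mouse 4, the log2 change of Htr2c was -0.11 (limma adjusted p = 0.682). Oligodendrocyte markers were lower, with 6 of 6 called, and summed to 2019 to 3339 FPKM and 1396 to 1937 FPKM.

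Of the other lists, 4 of 9 deep layer markers were called higher and 2 lower, and of 6 upper layer markers 1 was called higher and 1 lower. Of 8 interneuron markers 2 were called higher and 5 lower, and of 4 hippocampal markers tested 1 was called lower. Of 5 astrocyte markers 1 was called higher and 2 lower, and of 4 endothelial markers 2 were called lower. Of 5 microglial markers 0 passed the test (limma) and 1 had an unadjusted p below 0.05, and the same counts held for 4 general neuronal markers.

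**Figure D4:**
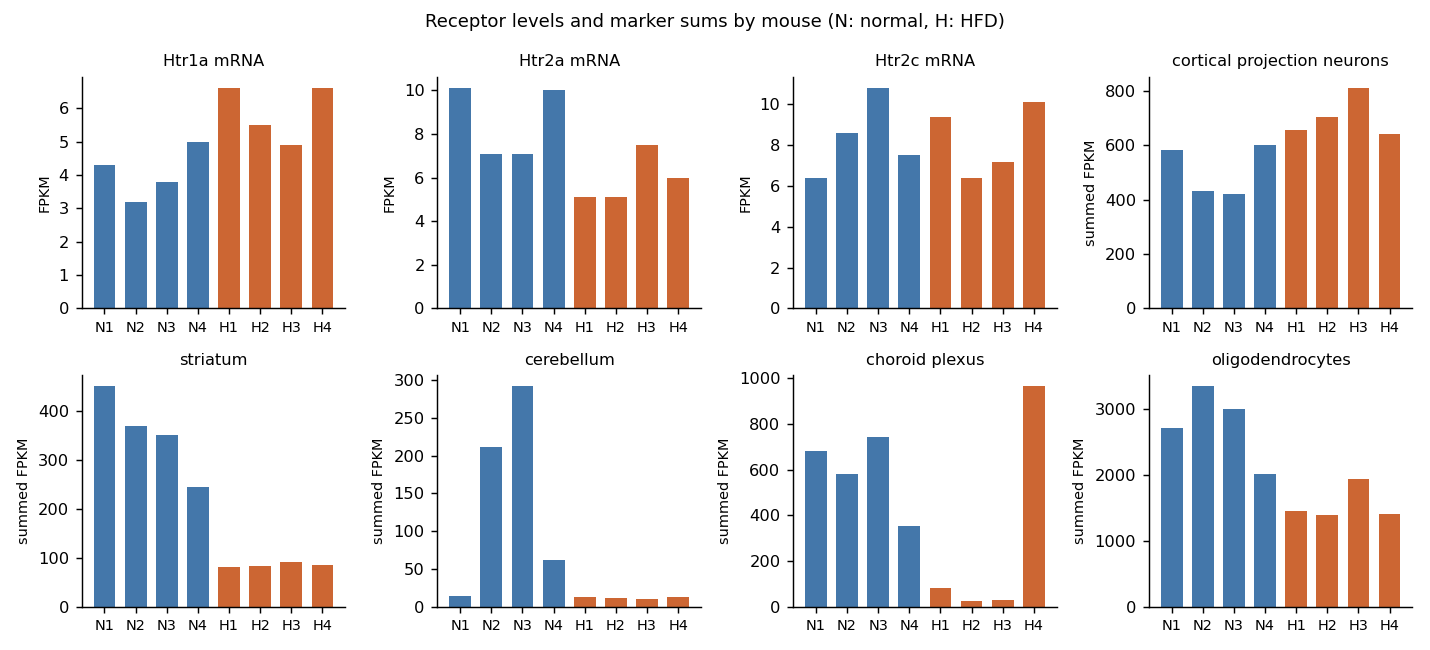
Bars by mouse (N1 to N4 normal, H1 to H4 high fat diet fed) of the FPKM of Htr1a, Htr2a and Htr2c and of the summed FPKM of 5 marker lists, each axis starting at 0. Cerebellar markers are high in normal mice 2 and 3 (211 and 291 FPKM), and choroid plexus markers are high in the normal mice and in HFD mouse 4 (963 FPKM).

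Of the 7 further serotonin receptors in the list, Htr3a and Htr7 are among the genes measured, and Htr1d, Htr2b, Htr3b, Htr5b and Htr6 are not analysed here. Htr3a, the ion channel receptor of a class of interneurons, was 3.2, 2.4, 2.9 and 3.1 FPKM in normal mice and 3.5, 3.8, 3.8 and 3.3 in HFD mice, without overlap. Its log2 change of 0.31 (standard error 0.11) lay at the threshold, with limma adjusted p = 0.05003. It passed with an added constant of 1 (limma adjusted p = 0.0486) or 0.5 (0.0493), without a variance trend (0.041) or without normal mouse 1 (0.0411). Its highest adjusted p was 0.235, without normal mice 2 and 3 (log2 change 0.18). Htr7, a Gs-coupled receptor, was 3.75 ± 0.465 and 4.50 ± 0.271 FPKM (SD, n = 4 each), a log2 change of 0.26 (limma adjusted p = 0.0663), and passed without normal mouse 4 (limma adjusted p = 0.029).

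The lists of related genes follow by role. Of 15 genes that make, carry and break down serotonin or its cofactor, 8 were tested, 4 were called lower and 0 higher, and the median log2 change was -0.38. Slc29a4, a transporter that takes up monoamines, fell from 2.55 ± 0.311 to 1.33 ± 0.287 FPKM (log2 change -0.91, limma adjusted p = 0.0045). Ddc, the decarboxylase of the last step of serotonin synthesis, was 2.9, 6.9, 4.7 and 2.8 FPKM in normal mice and 1.7 to 2.2 in HFD mice, with its highest values in normal mice 2 and 3. Pts and Qdpr, enzymes that make and recycle tetrahydrobiopterin, the cofactor of tryptophan hydroxylase, had log2 changes of -0.30 and -0.45. Maoa and Maob, the oxidases that degrade monoamines, did not pass (log2 changes -0.16 and -0.14). The 5 markers of serotonergic neurons, Tph2, Slc6a4, Fev, Slc18a2 and Gata3, are not analysed here.

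Of the signaling genes below Gi/o-coupled receptors, 4 of 8 were called higher and 2 lower, with a median log2 change of 0.16. Kcnj9 and Kcnj6, subunits of the potassium channels opened by Gi/o receptors, rose on the high fat diet. Kcnj9 was 42.3 to 46.9 FPKM in normal mice and 56.6 to 63.5 in HFD mice (log2 change 0.43, limma adjusted p = 0.00132), and Kcnj6 was 16.2 to 20.9 and 24.7 to 28.2 FPKM (log2 change 0.49, limma adjusted p = 0.00334). Gnao1, the most abundant Go subunit of brain, rose by 0.32, and Gnai3 fell by 0.25 on the log2 scale. Below Gq-coupled receptors, 1 of 8 genes was called higher and 2 lower, with a median of -0.12. Gna11, a G protein subunit of the Gq class, rose from 26.2 ± 2.72 to 33.0 ± 0.926 FPKM (SD, n = 4 each), by 0.33 on the log2 scale (limma adjusted p = 0.00729). Plcb4, a phospholipase C abundant in thalamus and cerebellum, was 24.0, 39.9, 39.5 and 24.2 FPKM in normal mice and 14.2 to 19.2 in HFD mice, high in the same normal mice 2 and 3 as the cerebellar markers. Itpr1, the calcium release channel of Purkinje cells and other neurons, fell by 0.42 on the log2 scale. It was 137.4, 176.8, 192.8 and 134.2 FPKM in normal mice and 107.1 to 140.9 in HFD mice. The diets overlapped, and normal mice 2 and 3 were again highest.

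Of the genes below Gs-coupled receptors, 5 of 12 were called higher and 2 lower, with a median log2 change of 0.11. Gnal and Adcy5, both known for high expression in striatum, had log2 changes of -0.58 and -0.68, and Adcy3 and Adcy8 rose by 0.35 and 0.47. Among partners and regulators of the receptors, 4 of 16 were called higher and 4 lower, with a median of 0.04. Cc2d1a, a repressor of Htr1a transcription, was 13.3 ± 0.984 FPKM in normal mice and 16.5 ± 0.271 in HFD mice (log2 change 0.31, limma adjusted p = 0.0044). S100a10, a protein that binds Htr1b and Htr4 and favours their place at the membrane, fell by 0.27, Rgs4, which shortens Gi/o and Gq signals, by 0.62, and Grk5, a receptor kinase, by 0.32 on the log2 scale. Over the pathway lists, 28 of 54 genes were called (51.9%, against the 33.1% of all genes), 14 higher and 14 lower, and the median was 0.04. With a mean FPKM of at least 5, 26 of 47 were called (55.3%), against 38.1% of all such genes. The lists were chosen with earlier results of these data known, so the higher share is not a result about the pathway. The count of 28 leaves out 1 gene that was removed from its list after the values were seen. It was 18 (33.3%) without normal mouse 3, when 25.9% of all genes were called, and 17 (31.5%) without HFD mouse 2, when 23.6% were.

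**Figure D5:**
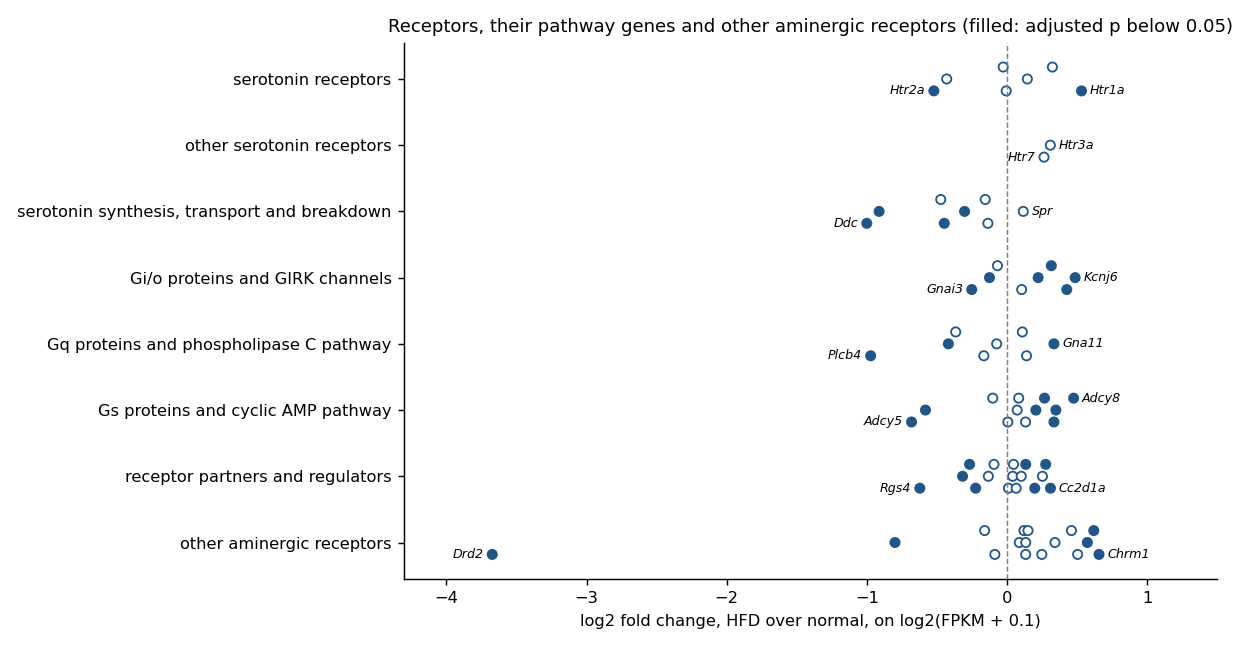
Log2 fold change (high fat diet fed over normal, horizontal axis) of each tested gene, in rows by role, filled where the adjusted p from limma was below 0.05, with the lowest and highest gene of each row named. The called genes lie on both sides of 0 in every row with a call except that of serotonin synthesis, transport and breakdown, where all 4 lie below 0.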

How the data were processed

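The FPKM values were made by the authors with Cuffnorm on GENCODE M17 (GRCm38.p6), from Trimmomatic-trimmed reads that STAR had placed on mm10. No source used here gives tool versions. The deposited FPKM values are rounded to 0.1, depth per mouse is unknown, and sums per mouse were 562431 to 639142. From them, log2(FPKM + 0.1) was fitted with limma 3.58.1 in R 4.3.3 over 13982 genes (mean FPKM of at least 1, no FPKM of 0). Ratios, sums and likeness were computed in Python 3.11.15 (scipy 1.17.1, numpy 2.4.6, pandas 2.3.3, matplotlib 3.10.9). The fit was tested before use on simulated 2-fold and 3-fold changes, and 89 and 96 of 100 genes were recovered. Noise was drawn separately for each gene and mouse. Changes as small as those of Htr1a and Htr2a were not simulated.

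The receptors and gene lists were chosen with earlier results of these data known. Named were all 7 receptors, up to 4 called genes with the smallest adjusted p per pathway list, and the 3 genes most like each receptor. Slc17a7, Ttr, Gabra6, Maoa, Maob and list genes not analysed here were named in addition. A gene of the pathway lists is not reported here and was left out of its list after the values were seen. Coordinates are from GENCODE M21 on GRCm38, which is later than M17, and promoter stretches are from RefSeq (GRCm38.p6), which held 6 of the 7 receptors. Alternatives were other added constants, filters and scalings, a fit lacking the variance trend, a block for replicate number, and each mouse left out. The replicate number is only a name.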

Additional observations from a re-analysis of the deposited data

Results flagged for a closer look

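Of 146 groups of 4 mice that were checked for 1 value far from the other 3, 7 were flagged, and chance flags about 1 in 20. Among the receptors, Htr7 of HFD mouse 2 was at 4.9 FPKM against 4.3 to 4.4 in the other 3, and the ratio of Htr1a to Htr1f in normal mouse 3 was 2.38 against 1.60 to 1.72. Choroid plexus markers summed to 963.4 FPKM in HFD mouse 4 against 25.1 to 81.9, and oligodendrocyte markers to 1937.4 FPKM in HFD mouse 3 against 1396.4 to 1453. Among pathway genes, HFD mouse 3 had the lowest Slc29a4 (0.9 FPKM against 1.4 to 1.5) and Gnai3 (11.2 FPKM against 12.8 to 12.9) of its diet. Cc2d1a of HFD mouse 4 was at 16.1 FPKM against 16.6 to 16.7.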

How the results depend on the processing

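The count of 2 receptors past the threshold was 1 (Htr2a) among the 2 tested with a mean FPKM of at least 5, 1 (Htr1a) with the replicate block, 0 when a change over 50% was also required, and 1 (Htr2a) without normal mice 2 and 3, an alternative chosen after seeing the data. It ranged from 0 to 3 with each mouse left out. Htr1a kept its call in 7 of 7 other settings (log2 change 0.45 to 0.53) and lost it without normal mice 2 and 3 (0.33); leaving out single mice gave 0.42 to 0.63. Htr2a kept its call in 7 of 8 settings and lost it with the replicate block (-0.52, limma adjusted p = 0.062); leaving out single mice gave -0.64 to -0.44. With single mice left out, Htr1b ranged from -0.60 to -0.26, Htr5a from 0.22 to 0.40, Htr1f from -0.01 to 0.27, Htr2c from -0.12 to 0.13 and Htr4 from -0.15 to 0.06. The count of 28 pathway genes ranged from 17 (without HFD mouse 2) to 29, with 18 without normal mouse 3. Leaving out a mouse removes samples, and the cause of the lost calls was otherwise not tested. Mice share only a number: deviations of same-numbered mice correlated at -0.11 to -0.03 over genes, 0 of 8 mice correlated best with their own number, and the block moved calls over all genes to 1840 higher and 1550 lower. The unknown depth and the 0.1 rounding limit low receptors such as Htr4.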

Other observations

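Other receptors for amines were looked at beside the serotonin receptors. Of 21 such genes 16 were tested, 3 were called higher and 2 lower, and the median log2 change was 0.14. Hrh1, a Gq-coupled histamine receptor, rose from 6.0 to 6.9 FPKM in normal mice to 8.7 to 11.2 FPKM on the other diet (log2 change 0.62, limma adjusted p = 0.00119). Chrm1, the Gq-coupled muscarinic receptor of cortical pyramidal neurons, was 27.1, 19.1, 16.3 and 26.8 FPKM in normal mice and 33.2 to 36.4 in HFD mice, a log2 change of 0.66 (limma adjusted p = 0.00979). Hrh2, a Gs-coupled histamine receptor, was 2.0 to 3.6 FPKM in normal mice and 3.6 to 4.6 in HFD mice. Drd2, a dopamine receptor of striatal neurons, was the lowest by fold, at -3.67 on the log2 scale, and is itself one of the striatal markers.

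Htr2a and Chrm1, both Gq-coupled receptors known from pyramidal neurons, were both higher in normal mice 1 and 4 than in normal mice 2 and 3, and lay on opposite sides in the HFD mice, where Chrm1 was above and Htr2a below the normal mean in each mouse. Whether these 2 differ in response was not tested.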
